A study of Mus musculus with 21 samples.

Results

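The mesothelium is the single layer of flat cells that covers the serosa, the outer surface of the colon that faces the peritoneal cavity. Its cells secrete a lubricating film, carry the WT1 transcription factor from development onwards and display surface proteins that are rare elsewhere in the bowel. In RNA from a whole piece of colon they are a small part of the tissue beside mucosa and muscle.

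The 6 genes described here mark these cells: Msln, Upk3b, Upk1b, Lrrn4, Wt1 and Gpm6a. They were taken by name from 27499 genes named on the day 0 array and 24191 named on the day 7 array, with 8 probes and 6 probes respectively. The probe that stands for each gene was selected on its measured brightness at that day, so the brightness of a probe is a description and not a result. All 8 and all 6 probes passed the detection filter and were tested.

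RNA came from total colon of germ-free (GF) mice on the C57BL/6J background, either wild type (GF WT) or lacking Card9 (GF Card9-/-), an adaptor of innate antifungal and antibacterial signalling. Among its germ-free mice, the paper states male sex for those that it colonized. The germ-free state is common to all groups. Before DSS (day 0), 7 arrays carry the label GF Card9-/- and 6 the label GF WT, here called KO-labelled and WT-labelled. At day 7 of 2% dextran sulfate sodium (DSS) in the drinking water, which injures the colonic epithelium, there are 4 arrays of each label. The sample records list 2% DSS for every array, those of day 0 included, and day 0 is read here as before DSS. Each array is a separate sample, but age, litter and cage are not given for these mice in the sources used here, so p-values measure the spread between these samples. The array designs differ between the days, so day and design cannot be told apart and no level was compared between days.

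The labels were first checked with Card9 itself. At day 0 its log2 signal was 8.71 or more on all 7 KO-labelled arrays and at most 2.33 on all 6 WT-labelled arrays, a difference of 6.58 (limma, adjusted p = 2.9e-13) in the direction opposite to the labels. At day 7 the 4 KO-labelled arrays read 7.93 to 8.57, 3 WT-labelled arrays read 2.38 to 2.41, and GF WT 1 read 7.85. Whether the probes lie in the deleted part of the gene was not tested. Whether the labels are exchanged was not settled here. An exchange would turn the sign of every difference below, and GF WT 1 at day 7 would then go against its label. Groups are called by their labels throughout, and every difference is KO-labelled minus WT-labelled. The share of spots well above background was 54.5% to 64.9% over the day 0 arrays and 42.2% to 57.1% over the day 7 arrays, and no spot was saturated.

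The probes are 60 bases long and carry the sense sequence of the transcript. The last 30 bases of each are shown, because they locate the part of the transcript that the values below describe. The polyadenylation signal letters AATAAA are in capitals where they occur. The letters ATTAAA were also searched and were in none of these tails.
Msln, chr17:25885569-25885598, minus strand: ggactcttgaactcAATAAAcagtggcata
Upk3b, chr5:136520552-136520581, plus strand: tggctattaatgacagtcggctacctagcc
Upk1b, day 0 probe, chr16:38773592-38773621, minus strand: tcacacttttggatgcttttagtctccagt
Upk1b, probe on both designs, chr16:38773859-38773888, minus strand: gacgactctcattcctgtctatgtttaatg
Lrrn4, chr2:132694490-132694519, minus strand: actatacatttctaagtgggttatccaagc
Wt1, chr2:105013686-105013715, plus strand: atcttacagtgtattgatgataatactaaa
Wt1, other day 0 probe, chr2:104974058-104974087, plus strand: tgagttatttcttagtggtctttgctggga
Gpm6a, chr8:56145569-56145598, plus strand: gattctttctaatgctacaagaatgctgtg

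Positions are on mm9, the build of the files. Of the 8 probes, only that of Msln held AATAAA in its last 30 bases.

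The 6 genes, chosen with earlier results of these data known, varied together from array to array at day 0. At day 7 their likeness rested in large part on 2 arrays. At neither day did any of them pass the test between labels. At day 0 all 6 were higher on average in KO-labelled arrays, with log2 differences from 0.53 to 1.37 and a median of 0.93. Over all 47410 probes tested the median difference was 0.02, and 57.0% were higher in these arrays. On the same arrays all 8 fibroblast genes tested were lower in KO-labelled arrays (median difference -0.82, and -1.17 to -0.49 with 1 array left out) and all 10 pancreas genes higher (1.51, but 0.27 with 7 of 10 higher without GF Card9-/- 7). None of these genes was called, and their part in the members' differences was not tested. At day 7 5 of the 6 were higher, with a median of 0.45, where 50.4% of all 44643 probes were higher and their median was 0.0013. In bulk RNA, fewer mesothelial cells in a piece of tissue and less of these RNAs in each cell cannot be told apart.

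**Figure D1:**
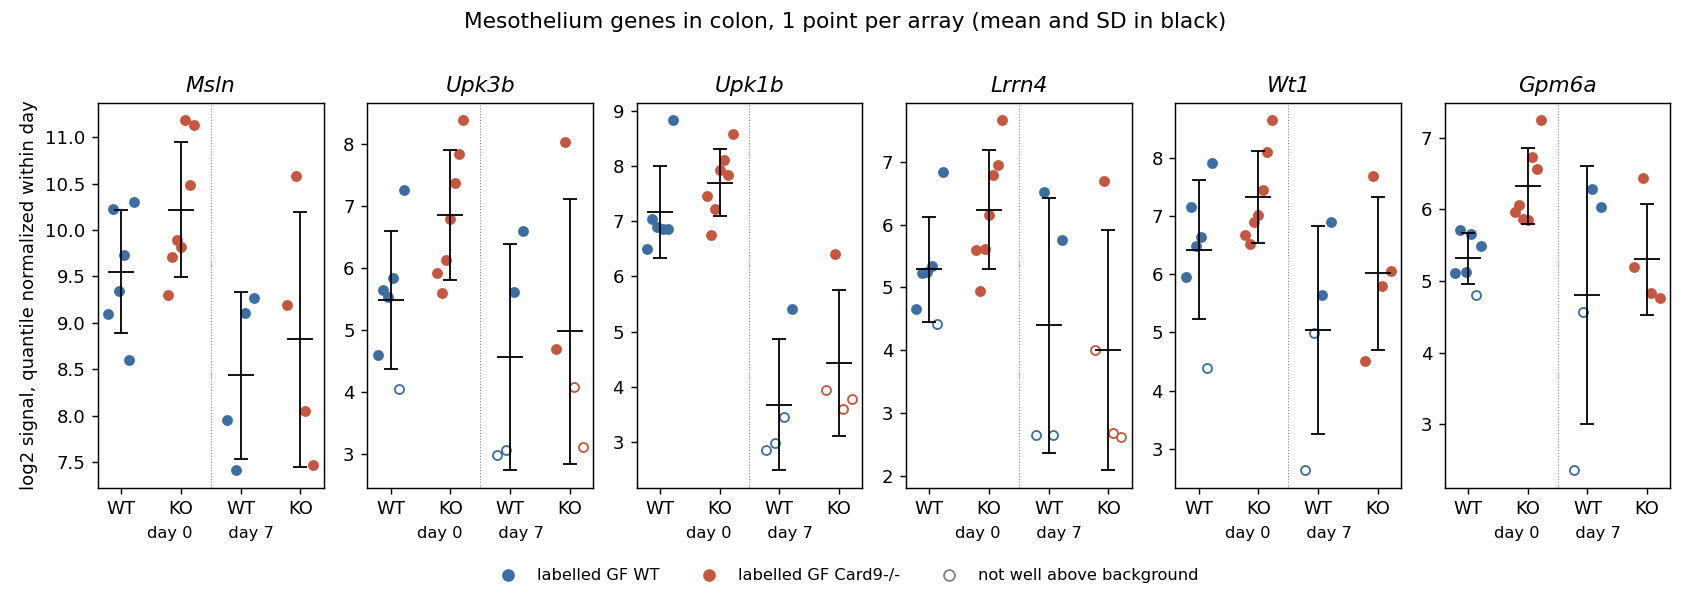
Log2 signal of the 6 genes on each array, with the mean and SD of each label in black. Blue points are WT-labelled arrays, red points KO-labelled arrays, and open points arrays on which the probe was not well above background; vertical scales differ between genes, and Upk1b is read by different probes at the 2 days. Only Gpm6a at day 0 separates the labels, and at day 7 a single red array stands at the top of each panel.

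Msln encodes mesothelin, a lipid-anchored glycoprotein of the mesothelial surface. It was well above background on all 13 day 0 arrays and all 8 day 7 arrays. At day 0 its log2 signal ran from 9.30 to 11.18 with a median of 9.90 in KO-labelled arrays, and from 8.60 to 10.31 with a median of 9.54 in WT-labelled arrays. The ranges overlap over most of their length, and 3 of the 7 KO-labelled arrays lay above every WT-labelled array. The difference was 0.67 (SE 0.37, 95% interval -0.14 to 1.47; limma, adjusted p = 0.912).

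Upk3b and Upk1b encode uroplakins, membrane proteins first known from the plaques of the bladder surface. Upk3b had the largest difference of the 6 at day 0. It ran from 5.60 to 8.38 with a median of 6.80 in KO-labelled arrays and from 4.06 to 7.27 with a median of 5.60 in WT-labelled arrays. The labels overlap, and the lowest value, in GF WT 5, was not well above background. The difference was 1.37 (SE 0.57, 95% interval 0.14 to 2.60), a 2.58-fold ratio, with an unadjusted p of 0.0324 and an adjusted p of 0.787 by limma. It was 0.92 on the deposited normalized log2 values and 0.67 with normexp background correction.

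Upk1b, a tetraspanin, ran from 6.75 to 8.58 with a median of 7.84 in KO-labelled arrays at day 0 and from 6.50 to 8.83 with a median of 6.88 in WT-labelled arrays. The top value of the day was in GF WT 6, and the remaining WT-labelled arrays read at most 7.05. The difference was 0.53 (SE 0.38, 95% interval -0.29 to 1.36; limma, adjusted p = 0.912), and 0.87 without GF WT 6 (unadjusted p = 0.00808, adjusted p = 0.456 by limma). The dimmer Upk1b probe followed the brighter one closely across the 13 arrays (r = 0.97 after centring within label). Its difference was 1.01 (95% interval 0.02 to 1.99), with an unadjusted p of 0.0459 and an adjusted p of 0.843 by limma.

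Lrrn4 encodes a membrane protein with leucine-rich repeats. At day 0 it ran from 4.94 to 7.66 with a median of 6.15 in KO-labelled arrays and from 4.41 to 6.83 with a median of 5.24 in WT-labelled arrays. GF WT 6 alone among the latter exceeded 5.34. The difference was 0.95 (SE 0.48, 95% interval -0.08 to 1.99; limma, adjusted p = 0.892). It was 0.52 on the deposited normalized log2 values and 0.43 with normexp background correction.

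Wt1, the zinc finger transcription factor that marks the mesothelium from the embryo onwards, ran from 6.52 to 8.65 with a median of 7.02 in KO-labelled arrays at day 0 and from 4.39 to 7.91 with a median of 6.57 in WT-labelled arrays. The lowest value, in GF WT 5, was not well above background, and the next lowest array read 5.95. The difference was 0.91 (SE 0.53, 95% interval -0.23 to 2.05; limma, adjusted p = 0.912). It was 0.50 without GF WT 5, 1.53 within the first scan session and 0.30 within the second. The other Wt1 probe, at a lower position on the chromosome and designed for a separate Ensembl transcript, did not share this spread. It spanned 2.09-fold over the 13 arrays against 19.2-fold for the brighter probe, or 6.51-fold without GF WT 5, its r with the brighter probe was 0.33, and its difference was 0.06 (adjusted p = 0.974).

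Gpm6a, a membrane glycoprotein best known from neurons, was the only member whose labels did not overlap at day 0. The 7 KO-labelled arrays read 5.85, 5.86, 5.96, 6.06, 6.57, 6.73 and 7.24, and the 6 WT-labelled arrays read 4.80, 5.12, 5.12, 5.50, 5.66 and 5.71. The 2 nearest arrays of the different labels lay 0.14 apart. The difference was 1.01 (SE 0.25, 95% interval 0.47 to 1.54), a 2.01-fold ratio, ranked 217 of all probes by p, with an unadjusted limma p of 0.00142, an adjusted p of 0.310 and a two-sided exact permutation p of 0.00117, of which 0.000583 is the smallest possible with 7 against 6 arrays. On the deposited normalized log2 values the difference was 0.57, and with normexp background correction 0.47. Every KO-labelled array lay above every WT-labelled array for 0.316% of the probes tested.

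So 0 of the 6 genes was called at day 0 with limma at an adjusted p under 0.05, where 0.0253% of all probes were called, 12 in number. At an unadjusted p under 0.05, 2 of the 6 were higher in KO-labelled arrays, Upk3b and Gpm6a, where 3.89% of all probes were. That count rested on single arrays: it was 5 of 6 without GF WT 6, where 4.90% of all probes were, 3 without GF Card9-/- 1 or 2, and 1, Gpm6a, without GF Card9-/- 5, 6 or 7 or GF WT 1 or 5, while without any other array it was 2. Because the genes move together, these are not independent counts. The dimmer Upk1b probe, left out of these counts, had an unadjusted p of 0.0459 by limma at day 0.

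**Figure D2:**
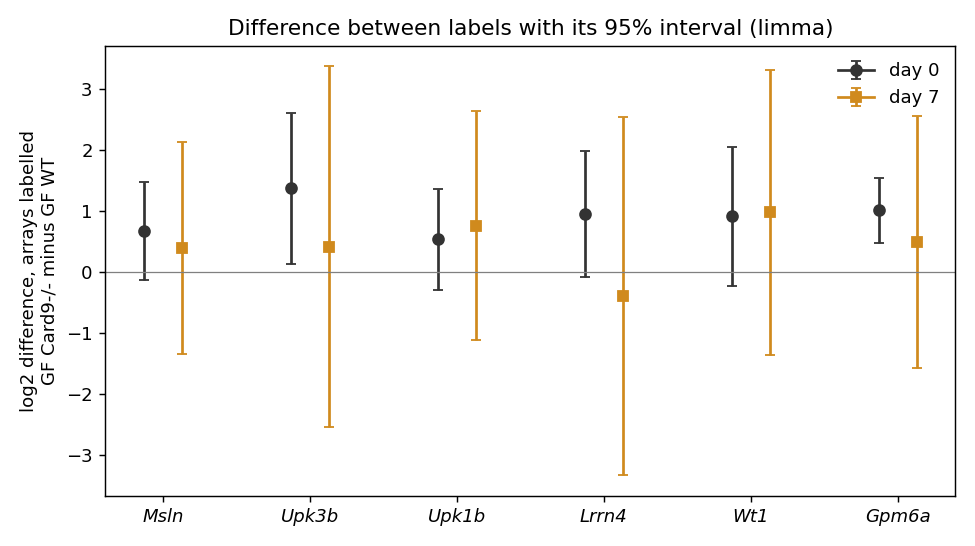
Log2 difference of each gene between KO-labelled and WT-labelled arrays, with its 95% interval from limma, at day 0 (dark circles) and day 7 (orange squares). The day 0 intervals of Upk3b and Gpm6a leave out 0, and all 6 day 7 intervals span it.

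At day 7 Msln was well above background on all 8 arrays. Upk1b was well above background on 2 of 8 arrays, Lrrn4 on 3, Upk3b on 4, and Wt1 and Gpm6a on 6. In the order GF Card9-/- 2, 2.1, 4 and 6, Msln read 9.19, 10.59, 8.05 and 7.47. In the order GF WT 1, 4, 5 and 6 it read 7.95, 7.41, 9.10 and 9.27. One array, GF Card9-/- 2.1, stood above the rest and the other 7 were interleaved.

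The uroplakins had the same top array. In the same orders Upk3b read 4.70, 8.03, 4.08 and 3.12 and then 2.99, 3.07, 5.62 and 6.61. Upk1b read 3.94, 6.40, 3.59 and 3.77 and then 2.85, 2.98, 3.46 and 5.41. The values under 4.1 of both genes were not well above background, so the order among them carries no information.

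The day 7 design holds 10 spots of the Upk1b probe and 1 of each other member. On GF Card9-/- 2.1 and GF WT 6 all 10 Upk1b spots were well above background, with an SD over the spots left after outlier removal of 0.15 and 0.17. On the other 6 arrays at most 4 of the 10 were. The signal of GF Card9-/- 2.1 for this gene was therefore not that of 1 spot.

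Lrrn4 read 4.01, 6.70, 2.68 and 2.61 in KO-labelled arrays and 2.65, 6.52, 2.65 and 5.76 in WT-labelled arrays. The second of the latter, GF WT 4, was high for Lrrn4 alone: its Msln value was the lowest of the 8 arrays, its Upk3b spot was not well above background, and 2 of its 10 Upk1b spots were. A single spot stands behind that Lrrn4 value, and it was not marked as an outlier.

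Wt1 read 4.50, 7.69, 5.80 and 6.06 in KO-labelled arrays and 2.63, 4.99, 5.64 and 6.91 in WT-labelled arrays. Gpm6a read 5.19, 6.44, 4.84 and 4.76, and then 2.36, 4.57, 6.29 and 6.03. GF WT 1 had the lowest value of both genes, and neither was well above background on that array.

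The day 7 differences were 0.39 for Msln, 0.41 for Upk3b, 0.75 for Upk1b, -0.40 for Lrrn4, 0.98 for Wt1 and 0.49 for Gpm6a, with standard errors from 0.74 to 1.27. Their adjusted p-values by limma lay between 0.913 and 0.983, no member had an unadjusted p under 0.05, and no member separated the labels. Of all 44643 probes tested, 0% were called, 2.02% were higher in KO-labelled arrays at an unadjusted p under 0.05, and 1.08% separated the labels in that direction. With 4 against 4 arrays the smallest two-sided exact permutation p is 0.0286. The 95% interval for Msln, well above background on every array, still ran from -1.35 to 2.13.

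The direction at day 7 rested on single arrays for Msln, Upk3b, Lrrn4 and Gpm6a, while Upk1b (0.09 to 1.33) and Wt1 (0.17 to 1.60) stayed positive whichever 1 array was left out. Without GF Card9-/- 2.1 the differences were -0.20 for Msln, -0.61 for Upk3b, 0.09 for Upk1b, -1.30 for Lrrn4, 0.42 for Wt1 and 0.12 for Gpm6a. Without GF WT 1, whose Card9 signal was like that of the other label, they were 0.23, -0.12, 0.48, -0.98, 0.17 and -0.32 in the same order, each with an adjusted p over 0.9 by limma.

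Whether the difference between labels changed from day 0 to day 7 was tested in a joint limma fit on the 23633 probes of both designs detected at both days. None of the members passed it. The change was -0.28 for Msln, -0.96 for Upk3b, -0.26 for the Upk1b probe on both designs, -1.35 for Lrrn4, 0.07 for Wt1 and -0.51 for Gpm6a, with adjusted p-values from 0.860 to 0.995 and intervals that all span 0, for Upk3b from -3.59 to 1.67. Of all probes 0% passed.

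For each array a score was formed as the mean over the 6 genes of the log2 signal, each gene first set to an average of 0 within its day. At day 0 it ran from -1.51 in GF WT 5 to 1.58 in GF Card9-/- 7. GF Card9-/- 7 had the top value of 4 of the 6 genes and GF WT 5 the lowest of 5. The score was 0.42 ± 0.74 (SD, n = 7) in KO-labelled arrays and -0.49 ± 0.77 (SD, n = 6) in WT-labelled arrays, so the means lay little more than 1 SD apart.

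At day 7 the score ran from -1.80 in GF WT 1 to 2.27 in GF Card9-/- 2.1, which had the top value of all 6 genes. It was 0.22 ± 1.39 (SD, n = 4) in KO-labelled arrays and -0.22 ± 1.28 (SD, n = 4) in WT-labelled arrays. From the lowest to the highest array the genes spanned 5.0-fold for Upk1b to 20.1-fold for Upk3b at day 0, and 9.03-fold for Msln to 33.5-fold for Wt1 at day 7. Dim values set the wider spans. Over the arrays on which a probe was well above background, Upk3b spanned 13.8-fold at day 0 (12 arrays), and Wt1 spanned 6.51-fold at day 0 (12 arrays) and 9.13-fold at day 7 (6 arrays).

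**Figure D3:**
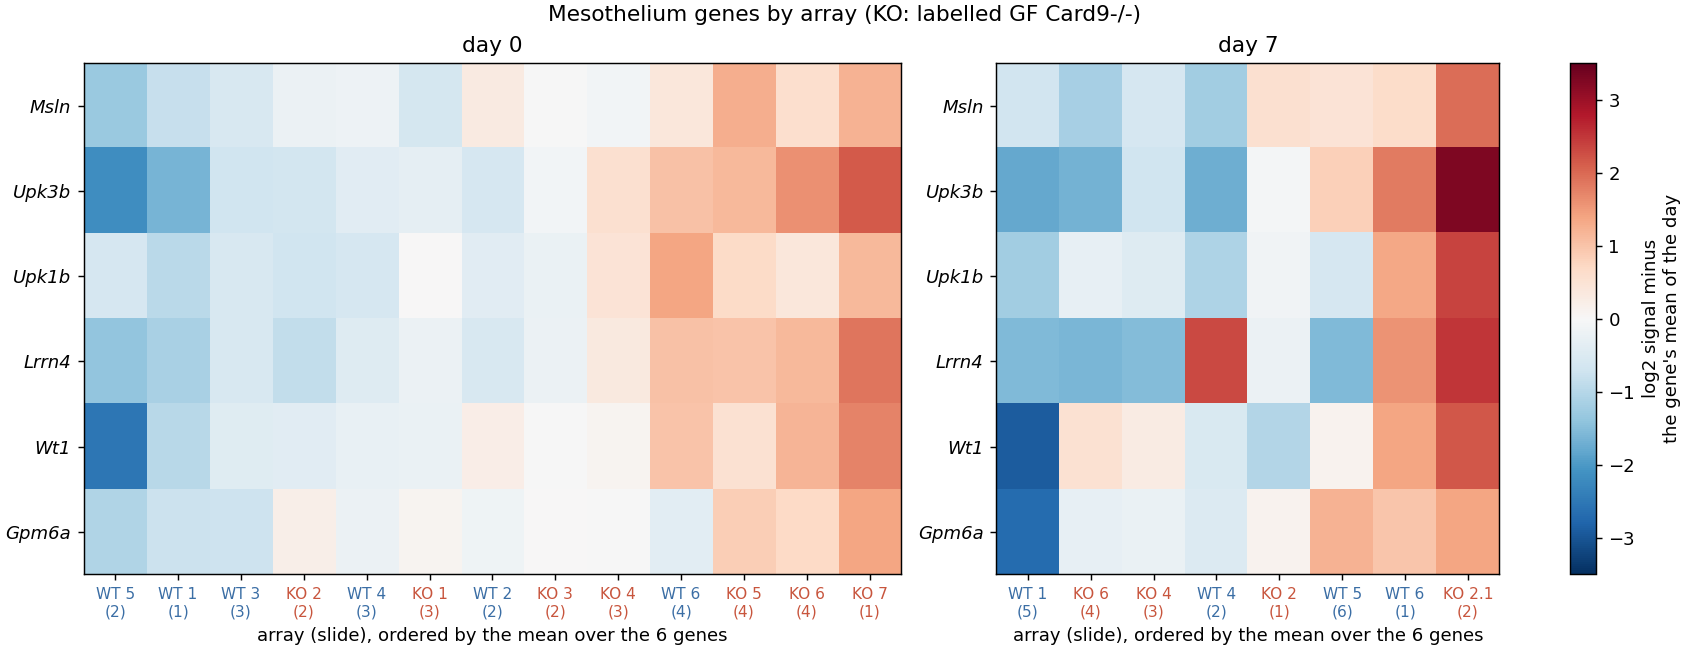
Log2 signal of each gene minus its mean over the arrays of the day, with arrays ordered from the lowest to the highest mean over the 6 genes and the slide in brackets. Red labels are KO-labelled arrays and blue labels GF WT. At day 0 most columns lean to 1 colour, with Gpm6a in WT 6 and Msln and Wt1 in WT 2 among the exceptions. At day 7 the columns are more mixed, with Lrrn4 high in WT 4 and low in WT 5.

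Slides and scan sessions of day 0 each held both labels. The 3 arrays of slide 4, GF WT 6, GF Card9-/- 5 and GF Card9-/- 6, all had scores between 0.75 and 0.94, while the 4 arrays of slide 2 lay between -1.51 and -0.09. In the first scan session the mean score was 0.35 in KO-labelled arrays and -0.91 in WT-labelled arrays, and in the second 0.47 and -0.06. With slide as a block the Gpm6a difference was 0.96 (limma, adjusted p = 0.424), within the first session it was 1.18 and within the second 0.85. The day 0 difference of Upk3b was 1.20 with slide as a block, 1.94 within the first session and 0.76 within the second. The part of slide in the members' values was not tested beyond these fits.

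The likeness of the genes was described by the 15 pairwise correlations across arrays, after each gene was centred within its label. The members were chosen with earlier results of these data known, and the arrays of a day share slides and a normalization, so no p is given. At day 0, over 13 arrays, the median r was 0.87, the lowest 0.59 for Upk1b with Gpm6a and the highest 0.98 for Upk3b with Lrrn4. Without the 2 arrays farthest from the median score, GF Card9-/- 7 and GF WT 5, the median was 0.83. Against the mean of the other 5, r was 0.99 for Upk3b, 0.97 for Lrrn4, 0.92 for Wt1, 0.91 for Msln, and 0.82 for both Upk1b and Gpm6a.

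At day 7, over 8 arrays, the median r was 0.68, the lowest 0.44 for Lrrn4 with Gpm6a and the highest 0.95 for Msln with Upk3b. Without GF Card9-/- 2.1 and GF WT 6, the 2 arrays farthest from the median score, the median was 0.45 and the lowest -0.23. The day 7 likeness thus rested in large part on those arrays. With 75th percentile scaling in place of quantile normalization, the median without the 2 arrays was -0.14.

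Upstream sequence was given by RefSeq (GRCm38.p6) for 3 of the 6 genes, Upk3b, Lrrn4 and Gpm6a. Upk3b and Lrrn4 are shown because they were the closest pair at day 0, and 1 start of Gpm6a because it held a searched motif. Each run is the 250 bases before the start, 5′ to 3′ on the gene's strand. These letters were searched on both strands: GCGGGGGCG and GCGTGGGAG, which WT1 and EGR1 type zinc fingers are known to bind, and the TATA box TATAAA. Capitals mark a match.
Upk3b, chr5:136038246-136038495, plus strand: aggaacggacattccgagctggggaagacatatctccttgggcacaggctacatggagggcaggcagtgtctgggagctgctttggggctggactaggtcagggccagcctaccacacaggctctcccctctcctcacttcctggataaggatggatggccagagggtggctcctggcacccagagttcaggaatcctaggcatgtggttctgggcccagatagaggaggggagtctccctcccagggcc
Lrrn4, chr2:132880863-132881112, minus strand: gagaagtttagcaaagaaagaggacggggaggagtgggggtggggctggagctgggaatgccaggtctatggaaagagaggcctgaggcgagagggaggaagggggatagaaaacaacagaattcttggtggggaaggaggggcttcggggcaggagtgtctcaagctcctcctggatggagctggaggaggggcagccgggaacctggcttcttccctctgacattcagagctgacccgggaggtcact
Gpm6a, chr8:54954478-54954727, plus strand: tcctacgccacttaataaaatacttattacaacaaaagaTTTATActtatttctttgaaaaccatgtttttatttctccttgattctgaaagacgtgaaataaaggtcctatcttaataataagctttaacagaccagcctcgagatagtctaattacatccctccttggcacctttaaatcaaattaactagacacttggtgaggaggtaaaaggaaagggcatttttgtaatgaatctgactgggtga

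These windows of Upk3b and Lrrn4 held none of the 3 sets of letters, and neither did the window of the other Gpm6a start. The Gpm6a start shown held TATAAA on the opposite strand. Among 32851 promoters of the same length, GCGGGGGCG was in 2.57%, GCGTGGGAG in 0.405% and TATAAA in 12.4%. The G and C content was 60.8% in the Upk3b window and 59.2% in that of Lrrn4, against 33.6% in the Gpm6a window shown.

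Among 17515 genes well above background on at least 50% of the day 0 arrays, the gene whose pattern was most like the score was Rspo1, which encodes the Wnt pathway enhancer R-spondin 1. Its r was 0.96 at day 0, also without the 2 farthest arrays, and 0.88 at day 7, where it ranked 61 and where r was 0.21 without the 2 farthest arrays. Rspo1 ran from 8.57 to 9.98 in KO-labelled arrays and from 7.13 to 9.24 in WT-labelled arrays at day 0, and its difference was 0.73 (limma, adjusted p = 0.876).

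By the mean of both days' r the next were Igfbp6, an insulin-like growth factor binding protein (0.79 and 0.88), Nkain4, a sodium pump interacting protein (0.75 and 0.88), Serpina3c, a serine protease inhibitor (0.85 and 0.75), and Smoc1, a matrix protein (0.74 and 0.86). Without the 2 farthest arrays of day 7, r was 0.73 for Igfbp6, 0.84 for Nkain4, 0.54 for Serpina3c and 0.35 for Smoc1. None of the 5 was called between labels at either day.

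**Figure D4:**
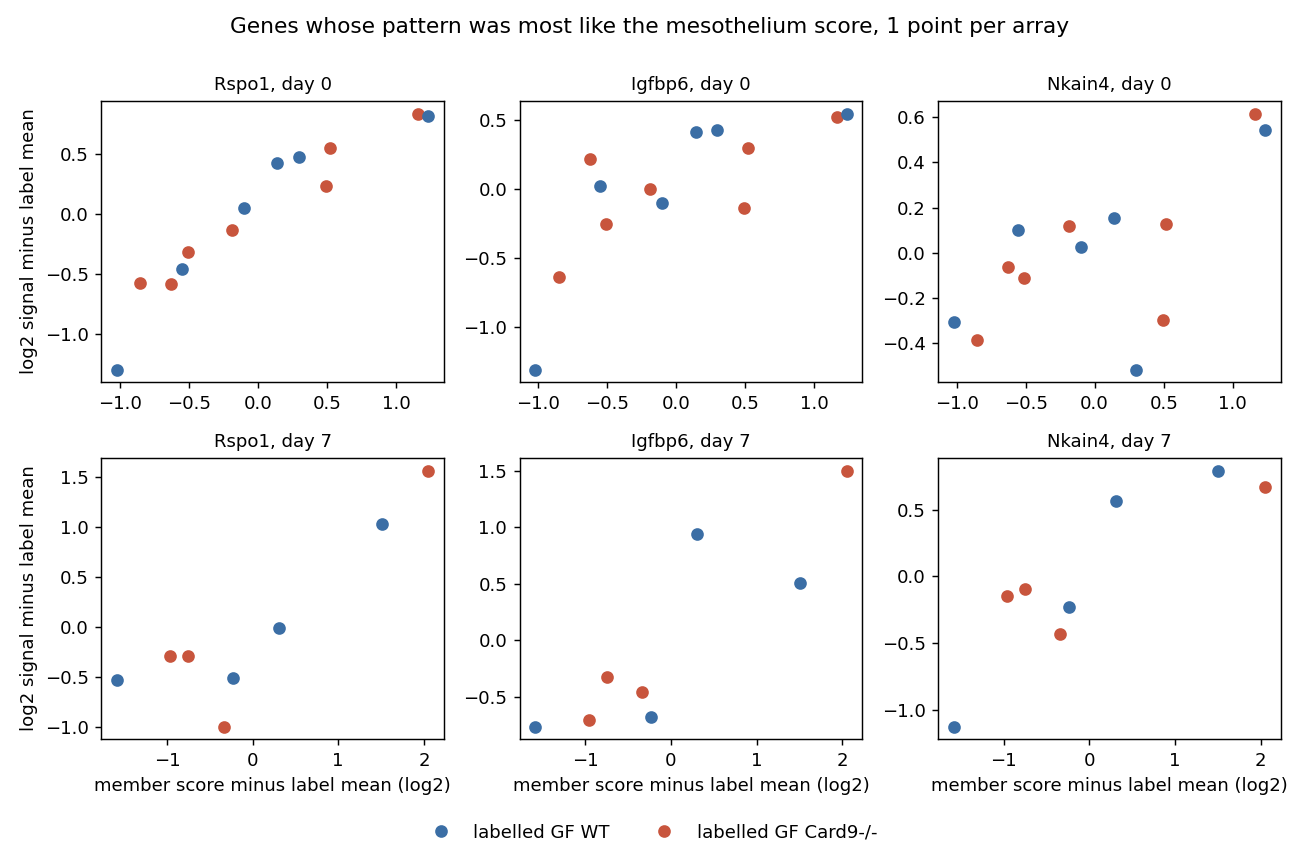
Log2 signal of Rspo1, Igfbp6 and Nkain4 minus the mean of the label, against the member score minus the mean of the label, 1 point per array (red GF Card9-/-, blue GF WT), at day 0 above and day 7 below. Each panel slopes upwards, and at day 7 the rightmost points carry much of the slope of Rspo1.

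The other genes most like the score differed between the days. After Rspo1 the day 0 list went on with C2, Abca4, Hspe1, Polb, Dnajc15, Tmem33, Lcmt2, Hs6st1 and Rpl36al. The 10 had a median r of 0.87 at day 0 and 0.34 at day 7, where 3 of them were over 0.5. The day 7 list was Lctl, 8430428J23Rik, Pold2, Tefm, Lpin1, Polr2f, Acer3, Scn4a, Thoc3 and Crat. These had a median r of 0.95 at day 7 and 0.46 at day 0, where 4 of them were over 0.5. Among all genes ranked, 11.8% at day 0 and 12.0% at day 7 had an r over 0.5.

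Of a wider list of 35 genes named for mesothelium, 34 were measured, 33 were tested at day 0 and 31 at day 7, and limma called 0 in either direction at either day. The median difference was 0.02 at day 0 and 0.01 at day 7. At day 0 the 6 with the highest r with the score were Rspo1, Bnc1 (0.83), a zinc finger protein of basal and mesothelial cells, Igfbp6, C3 (0.75), the central complement component, Nkain4 and Ildr2 (0.70). Bnc1 was well above background on no array of either day, so its r describes dim signal. The lowest were Fgf9 (-0.67), a growth factor of the embryonic mesothelium, Tcf21 (-0.63), a transcription factor of fibroblasts, and Thbd (-0.50), thrombomodulin, which endothelium carries too. Over the 28 genes of the list well above background on at least 50% of the day 0 arrays the median r was 0.06, so most of the wider list did not follow the 6 members in these samples.

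Markers of other tissues that a piece of colon could hold were set beside the score. Adipocyte genes, 10 of 10 measured and well above background on at least 50% of the day 0 arrays, had an r of 0.20 with the score at day 0. Their summed signal ran from 2792 to 245250 in KO-labelled arrays and from 15309 to 127810 in WT-labelled arrays. The lowest sum, in GF Card9-/- 5, belonged to an array with a member score of 0.91, and without that array, a choice made after seeing the data, r was 0.75 over 12 arrays. Without the 2 arrays farthest in member score, which do not include it, r was 0.11. At day 7 adipocyte r was 0.64, and -0.28 without the 2 farthest arrays. There the sums ran from 26372 to 123550 in KO-labelled arrays and from 13547 to 93253 in WT-labelled arrays, with Lep never well above background.

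Pancreas acinar genes, digestive enzymes of the gland that lies in the mesentery, were far higher on 3 arrays. The summed signal of 12 genes was 2159600 on GF Card9-/- 7, the array with the top member score, against 24259 to 101670 on the other 12 day 0 arrays. At day 7 the sum over 11 measured genes was 688570 on GF Card9-/- 6 and 58436 on GF Card9-/- 2.1, against 6595 to 17917 on the other 6. All 12 genes at day 0 and all 11 at day 7 were well above background on at least 1 array. GF Card9-/- 2.1 had the top member score of day 7 (2.27) and GF Card9-/- 6 the next to lowest (-0.74). The r of this list with the score was 0.30 at day 0 and 0.08 at day 7, or -0.72 and -0.16 without the 2 farthest arrays.

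Some of these lists differed between the labels in 1 direction at day 0, where the members were higher in KO-labelled arrays, though none of their genes was called. The higher pancreas genes (median difference 1.51) rested on GF Card9-/- 7, whose pancreas score, the mean log2 signal relative to each gene's mean of the day, was 7.65 against -0.96 to -0.28 on the other 6 KO-labelled arrays and -1.45 to -0.47 on the WT-labelled arrays. Lower in KO-labelled arrays were all 8 fibroblast genes (median -0.82), all 9 smooth muscle genes (-0.45), all 5 endothelium genes (-0.42), all 5 glia genes (-0.38) and all 5 B cell genes (-0.17). With 1 array left out the medians were -0.76 to -0.12 for smooth muscle, -0.67 to -0.19 for endothelium and -0.53 to -0.27 for glia, while B cell genes turned to 0.30 without GF WT 2. The other lists were mixed. Higher were 4 of 5 peritoneal macrophage genes (0.36, and 0.07 to 0.49 with 1 array left out) and 1 of 10 neuron genes (-0.19, and -0.25 to -0.04). So were 4 of 10 adipocyte genes (-0.16), 4 of 8 colonocyte genes (-0.0014), 1 of 4 urothelium genes (-0.17) and 1 of 3 epididymis or testis genes (-0.22). At day 7 all 7 colonocyte genes (0.28), all 5 B cell genes (0.52), 10 of 11 pancreas genes (5.09) and 8 of 10 adipocyte genes (0.90) were higher, while 1 of 9 smooth muscle genes (-0.42), 1 of 8 fibroblast genes (-0.16) and 1 of 5 endothelium genes (-0.11) were. The pancreas median was 0.72 without GF Card9-/- 2.1 and 6. Leaving out 1 array turned the B cell median to -0.12 (GF Card9-/- 2), smooth muscle to 0.02 (GF Card9-/- 2.1), and fibroblast to 0.14 and endothelium to 0.21 (GF WT 5). Leaving out arrays in these lists was chosen after seeing the data. The part of these lists was likewise not tested.

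The day 0 difference was recomputed without the arrays that stood apart in these lists, GF Card9-/- 5 and 7, an alternative added after seeing the data. It was 0.74 for Gpm6a, again not called by limma, 0.96 for Upk3b, 0.29 for Msln, 0.27 for Upk1b, 0.56 for Lrrn4 and 0.62 for Wt1. Without GF Card9-/- 2.1 and 6 at day 7 they were 0.18 for Msln, -0.18 for Upk3b, 0.09 for Upk1b, -1.05 for Lrrn4, 0.11 for Wt1 and 0.20 for Gpm6a. The part of fat or pancreas in the members' values was not tested further.

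Smooth muscle genes, 9 of 9 well above background, went the other way at day 0 (r = -0.47), where their sums ran from 98260 to 945580 in KO-labelled arrays and from 136320 to 774460 in WT-labelled arrays. The 3 arrays of slide 4 had the 3 lowest sums of the day, up to 146880. Without the 2 farthest arrays r was -0.70. At day 7 r was -0.12, and 0.69 without the 2 farthest arrays. Enteric neuron genes, listed because Gpm6a is also a neuronal gene, had an r of -0.17 at day 0 and 0.04 at day 7, or -0.40 and 0.75 without the 2 farthest arrays, and their sums stayed within 25274 to 51553 at day 0. Of the 5 urothelium markers, set beside Upk1b and Upk3b because uroplakins are bladder proteins, the uroplakin genes Upk3a and Upk2 and the surface antigen gene Psca were well above background on no array of either day. The other 2, the uroplakin gene Upk1a and the keratin gene Krt5, were well above background on at least 50% of the arrays of both days.

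Of the remaining lists, r with the score at day 0 was -0.45 for enteric glia, -0.28 for fibroblasts, -0.39 for endothelium, -0.25 for colonocytes, 0.06 for the whole urothelium list, 0.13 for B cells and 0.09 for peritoneal macrophages. Without the 2 farthest arrays these day 0 values were -0.61, -0.66, -0.69, -0.15, 0.22, 0.05 and -0.03 in the same order. At day 7 they were 0.08, -0.11, -0.46, 0.32, 0.14, -0.57 and -0.72 over all 8 arrays, and 0.58, 0.52, 0.56, -0.63, 0.26, -0.21 and 0.40 without the 2 farthest, so 4 of the 7 turned in sign. Epididymis and testis genes had no r, with 0 of 5 well above background on at least 50% of the arrays of either day. The share of spots well above background had an r of -0.49 with the score at day 0 and 0.32 at day 7.

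**Figure D5:**
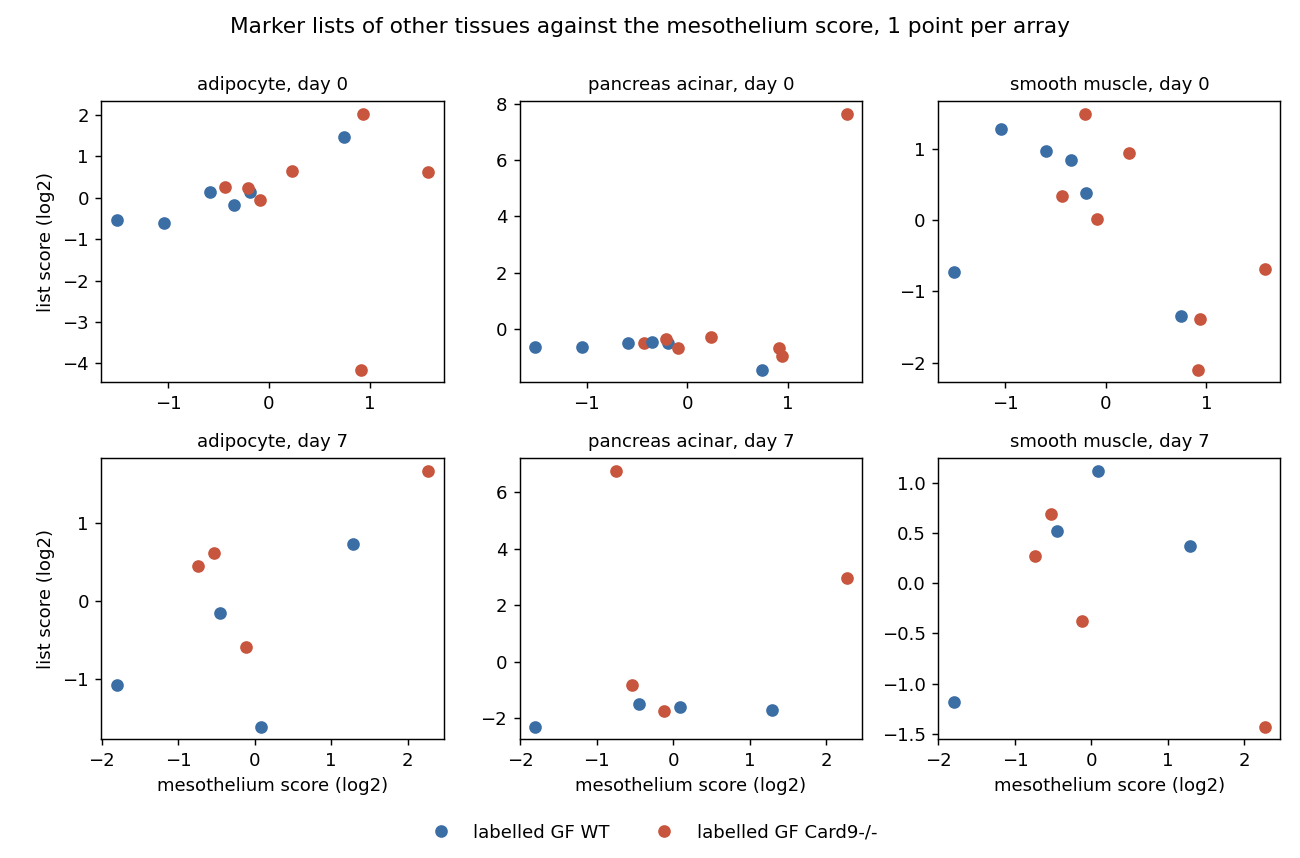
Scores of the adipocyte, pancreas acinar and smooth muscle lists (mean log2 signal relative to each gene's mean of the day) against the mesothelium score, 1 point per array (red GF Card9-/-, blue GF WT), at day 0 above and day 7 below. At day 0 adipocyte genes have 1 low point, GF Card9-/- 5 (r = 0.20 over all 13 arrays), and pancreas genes stand out on 1 array.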

How the data were processed

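Single-color Agilent arrays were hybridized with Cy3-labelled RNA from total colon, 13 of design 074809 at day 0 and 8 of design 028005 at day 7. The authors extracted spot intensities with Feature Extraction 10.7.3.1. The intensities are linear, as deposited, without normalization across arrays. Deposited columns also give, per spot, a p-value against background and flags for outliers and for signal well above background. The authors also deposited log2 tables, used here as an alternative. The 6 members, the wider list and the marker lists were chosen with earlier results of these data known.

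Processed intensities were put on the log2 scale and quantile normalized within a day over all spots; control and outlier spots were then dropped and the rest averaged per probe. A probe was tested when detected (p under 0.05 on at least 50% of its spots) in at least 60% of the arrays of 1 label, with at least 2 values per label. At day 0 this kept 47410 of 56605 probes, and at day 7 it kept 44643 of 55681. Labels were compared within each day with limma 3.58.1 in R 4.3.3 (lmFit, eBayes) and Benjamini-Hochberg adjustment over all probes at 0.05. Genes named besides the members were those with the highest r with the member score, the 10 of each day, the 5 of both, and the 6 highest and 3 lowest of the wider list. The code was tested on simulated data. Probe positions are on mm9. Array number limits the precision. No columns were left unused for want of a sample.

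Alternatives were 75th percentile scaling, normexp background correction (offset 50), the deposited log2 table, other filters, slide, scan session and replicate number as blocks, array weights, and leaving out arrays.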

Additional observations from a re-analysis of the deposited data

Results flagged for a closer look

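The highest or lowest array of each label and day was compared with its nearest neighbour for the 6 genes and their score, 28 groups in all, with Dixon's 95% critical values, which chance passes in about 1 group in 20. There were 2 such values, both for Upk1b. Among the 6 arrays labelled GF WT at day 0, GF WT 6 read 8.83 against 7.05 for the next array, a gap of 0.77 of the range. Among the 4 arrays labelled GF Card9-/- at day 7, GF Card9-/- 2.1 read 6.40 against 3.94, a gap of 0.88 of the range. The first was on 1 spot of the day 0 probe and the second on 10 spots. On the dimmer Upk1b probe GF WT 6 also read highest of its label at day 0, 6.98 against 5.07 for the next array.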

How the results depend on the processing

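Depth is replaced on arrays by signal over background: at day 7 Upk1b, Lrrn4 and Upk3b were well above background on 2, 3 and 4 of 8 arrays, and the well above background filter dropped these 3 genes. No member was called at either day under any alternative that gives a p (the mean over a gene's probes gives none), with the lowest adjusted p 0.221 at day 0 (Gpm6a, well above background filter) and 0.777 at day 7. All 6 day 0 differences stayed positive in every alternative run. Gpm6a lay between 0.47 (normexp) and 1.18, Upk3b between 0.67 (normexp) and 1.94, Lrrn4 between 0.43 (normexp) and 1.30, Wt1 between 0.30 (second scan session) and 1.53, Upk1b between 0.27 and 0.87 (without GF WT 6), and Msln between 0.29 and 0.94. The lowest values of Msln and Upk1b were without GF Card9-/- 5 and 7, and the highest of every member but Upk1b were within the first scan session.

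The count of all probes called at day 0, 12, became 27 with normexp, 22 with the deposited log2 table, 22 with the well above background filter, 1 in the first scan session alone (Card9), 3 in the second (2 probes of Card9 and 1 of Map3k14), and 7 with the replicate block. Leaving out 1 array gave 8 to 16. At day 7 the count was 0 to 1, the 1 being Card9 without GF WT 1, and for the change between days 0 to 2 (without GF WT 5 of day 7, Lockd and an unnamed probe; without GF WT 6, Sat2 and an unnamed probe); these names were chosen after their values were seen.

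Correlations of same-numbered arrays ran from -0.19 to 0.37 at day 0, and were 0.11 and 0.03 at day 7. These values alone do not show whether replicate numbers pair the samples. With the replicate block, run on the 6 shared numbers of day 0 and the 2 of day 7, Gpm6a was 0.85 at day 0. At day 7 it gave -0.58 for Msln, -1.24 for Upk3b, -0.51 for Upk1b, -0.014 for Wt1 and -0.50 for Gpm6a, all turned in sign, and -3.49 for Lrrn4, which kept its sign (adjusted p = 0.832 by limma); the cause was not tested. Day 7 differences also turned in sign when 1 array was left out. The ranges were -0.20 to 0.84 for Msln, while Upk1b, at 0.09 to 1.33, did not turn. For Upk3b they were -0.61 to 1.03 without a KO-labelled array and -0.12 to 1.09 without a WT-labelled one, for Lrrn4 -1.30 to 0.066 and -0.98 to 0.31, and for Gpm6a -0.32 to 0.99 without a WT-labelled one. Upk3b also turned without GF Card9-/- 2.1 and 6 (-0.18). The change between days turned for Wt1 with 1 normalization over both days (-0.082) and with array weights (-0.51). Leaving out 1 array, it was -0.49 to 0.57 without a KO-labelled and -0.74 to 0.69 without a WT-labelled day 7 array for Wt1, -0.87 to 0.17 and at its lowest -0.62 for Msln, and -0.91 to 0.32 for Upk1b, at its lowest -0.63 without GF WT 6 of day 0. The change stayed negative with 1 array left out for Upk3b (-1.975 to -0.28), Lrrn4 (-2.25 to -0.64) and Gpm6a (-1.33 to -0.022). With array weights it was -2.32 for Lrrn4 (unadjusted p = 0.0412, adjusted p = 0.685 by limma).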
